A study of Mus musculus with 17 samples.

Results

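Genes of mitosis and of the G2/M transition were examined in cultured mouse macrophages in which AP-1 transcription factor genes had been edited, and in primary macrophages. The 46 genes were taken by symbol from a list of known mitotic regulators, drawn up with earlier results of these data known, and all 46 had a model among the 24453 gene models of the deposited expression table. Each knockout was compared with the scramble control over 8 libraries of an immortalised line, and the line was compared with primary cells over 5 further libraries.

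Progress through G2 and mitosis is driven by the kinase Cdk1 with its cyclins, which the Cdc25 phosphatases switch on. Aurora and Polo-like kinases and the chromosomal passenger complex then build and check the spindle, and the anaphase-promoting complex (APC/C) ends mitosis by marking cyclins and securin for destruction. RNA of these genes is low in resting cells and rises together late in the cell cycle, when the MuvB complex with B-Myb and Foxm1 acts at promoters that carry CCAAT boxes, bound by NF-Y, and the cell cycle genes homology region (CHR). Elicited peritoneal macrophages are known as largely non-dividing cells, whereas an immortalised line divides in culture.

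The study asked how AP-1 family members, bZIP factors that share a recognition motif, differ in function in macrophages. Immortalised bone marrow-derived macrophages (iBMDMs) were a C57Bl/6EiJ male line transformed with a retrovirus carrying mutant BRAF and Myc, and, per the study's methods, carried Cas9. Lentivirus with 2 guides per target gave cells labelled Atf3KO, JunKO and JunDKO, which were sorted for a fluorescent protein on the virus, and cells labelled Scramble Control (zsGreen in the titles) were the control. All of these cells were labelled as vehicle treated and as passage 3 to 8, and each of the 4 groups held 2 libraries. Thioglycollate-elicited macrophages (TGEMs), flushed from the peritoneum of young adult male mice, came from C57Bl/6EiJ or Balb/cJ animals and received vehicle or, for 1 h, the TLR4 agonist Kdo2 lipid A (KLA). There were 1 C57Bl/6EiJ vehicle, 1 C57Bl/6EiJ KLA, 1 Balb/cJ vehicle and 2 Balb/cJ KLA libraries. The labels do not say whether libraries of a group came from separate cultures or animals, so p-values measure only the spread between these libraries.

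Values were RPKM, reads scaled to exon length and to library size, so levels of different genes can be compared per length. Libraries held 1553296 to 18444437 reads, with JunDKO replicate 1 the shallowest and JunDKO replicate 2 the deepest, and members had a median of 40.5 to 1253 reads in the iBMDM libraries but 7 to 36 in the TGEM libraries. RNA of a targeted gene need not fall after an edit by guide RNA, and of the 3 only Jund was lowest in the libraries of its own label, by a difference that did not pass. The study checked the knockouts at the protein level by western blotting, which was not analysed here. Atf3 was at 80.7 and 77.4 RPKM in Scramble but at 154 and 169 where the label was Atf3KO (log2 fold change 1.02 ± 0.16, adjusted p = 0.00237). Jun was at 17.6 and 18.5 RPKM in Scramble and at 26.2 and 20.5 in JunKO, 17.9 and 46.2 in Atf3KO and 13.5 and 13.5 in JunDKO. Jund was at 9.19 and 8.33 RPKM in Scramble, 6.94 and 6.07 in JunDKO, 11.6 and 9.74 in JunKO and 22.6 and 83.0 in Atf3KO (−0.38 ± 0.49 in JunDKO against Scramble, adjusted p = 0.654). Group names are therefore those of the labels throughout. All 9 macrophage markers examined had reads in every group, with summed levels of 8059 to 11029 RPKM in TGEMs. In iBMDMs the sum was 22457 to 24039 RPKM in Scramble, 24117 to 33226 in Atf3KO and 30844 to 31198 in JunKO, and was lowest in JunDKO at 17040 to 17621, without overlap. Lyz2 made up most of this sum, at 21520 and 20190 RPKM in Scramble and 15109 and 14815 in JunDKO. Cd68, Csf1r, Fcgr1 and Mertk were higher in JunDKO than in Scramble, Adgre1 and Itgam were lower, and Spi1 and Cd14 overlapped. T cell markers were at 0 in all iBMDM libraries, and B cell, mast cell and fibroblast or mesothelial markers were under 1 RPKM there.

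In every library of the line the members were expressed, and their level differed between groups by more than between replicates. Summed over the 46 genes, the level was 493 and 487 RPKM in Scramble, 667 and 734 in JunKO, 1095 and 925 in Atf3KO, and 1354 and 1329 in JunDKO. The groups did not overlap, in that order. The median member measured 8.09 and 7.59 RPKM in Scramble, 10.6 and 12.8 in JunKO, 16.8 and 13.8 in Atf3KO and 27.0 and 24.8 in JunDKO. At or above 16 RPKM were 7 and 10 members in the Scramble libraries, 16 and 14 in JunKO, 24 and 20 in Atf3KO and 35 in each JunDKO library. In TGEMs the sum was 71.5 to 113 RPKM, and 20 to 30 members were under 1 RPKM in each library. Scramble had the lowest group mean for 42 members and JunDKO the highest for 37, while Atf3KO was highest for the other 9. This order was not worked out over all genes. Of 10691 genes tested, 7344 had a log2 fold change above 0 in JunDKO against Scramble, 5570 in Atf3KO and 5431 in JunKO. A larger share of cells in G2 or mitosis and more RNA of these genes per cell cannot be told apart in such bulk libraries.

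**Figure D1:**
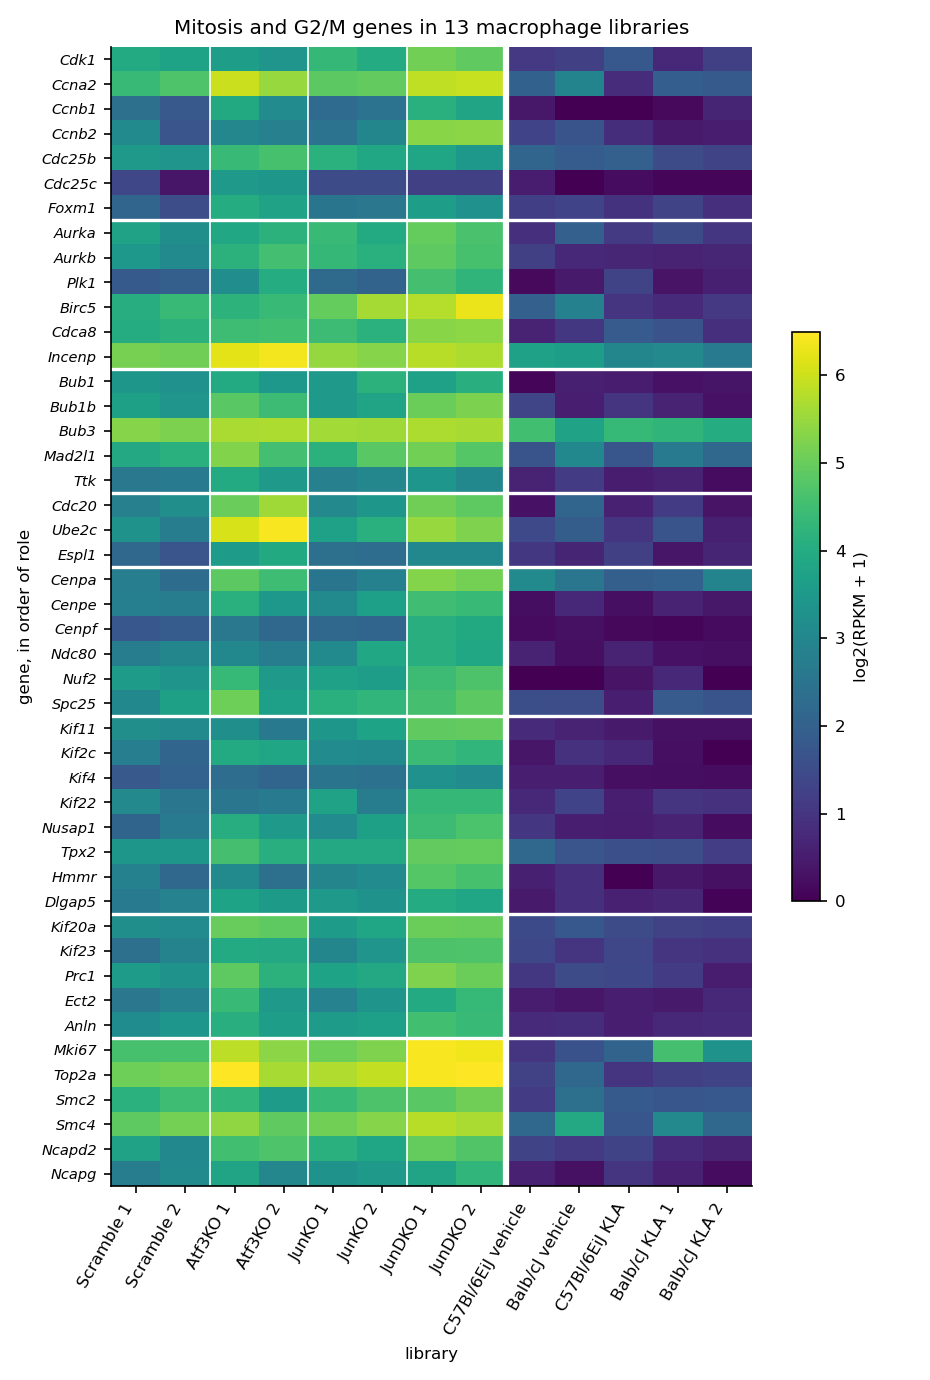
Level of each of the 46 genes as log2(RPKM + 1), on the colour scale, in the 13 libraries, with thick white lines between role groups and between iBMDM (left) and TGEM libraries (right). The 2 JunDKO libraries are the brightest for most genes, and the 5 TGEM libraries are dark for most genes, with Bub3 among the brighter ones.

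The members also shared promoter sequence that was not used to choose them. A promoter window from 250 bases before to 50 after the transcription start (RefSeq, GRCm38.p6, the build of the deposited table) was matched for 36 members and for 16747 genes in all. A CCAAT box (the letters CCAAT or their complement ATTGG) lay in 30 of the 36 member windows, 83.3%, against 38.6% of all windows. A CHR (TTTGAA, its complement TTCAAA, or TTCGAA) lay in 30 windows, 83.3%, against 17.4%. Both elements were present in 28 member windows (77.8%) against 7.12% of all windows and 5.90% of the windows of genes tested in iBMDMs. The AP-1 site TGAGTCA or its complement TGACTCA was found in 0 of the 36 member windows against 4.78% of all, and the palindromic CRE letters TGACGTCA in 2 (Cenpe and Ndc80) against 2.39%. Matches on both strands were counted, overlapping matches separately. They describe letters in these windows, not bound sites.

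The 200 bases before the start are given for 4 members that carry both elements and differed in their values: Cdk1 and Kif22 rose in JunDKO and did not pass in Atf3KO, and Cdc20 and Ube2c rose in both. Each is written 5′ to 3′ on the strand of the gene, with CCAAT boxes and CHRs in capitals.
Cdk1, chr10:69352913-69353112, minus strand: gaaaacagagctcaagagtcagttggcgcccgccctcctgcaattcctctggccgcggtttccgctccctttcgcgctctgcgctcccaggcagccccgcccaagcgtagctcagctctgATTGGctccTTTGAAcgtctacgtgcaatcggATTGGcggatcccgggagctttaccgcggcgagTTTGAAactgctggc
Kif22, chr7:127042421-127042620, minus strand: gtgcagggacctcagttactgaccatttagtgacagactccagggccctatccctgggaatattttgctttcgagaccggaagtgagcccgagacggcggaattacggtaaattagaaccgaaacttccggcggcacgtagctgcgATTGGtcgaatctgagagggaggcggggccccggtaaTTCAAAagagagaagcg
Cdc20, chr4:118437344-118437543, minus strand: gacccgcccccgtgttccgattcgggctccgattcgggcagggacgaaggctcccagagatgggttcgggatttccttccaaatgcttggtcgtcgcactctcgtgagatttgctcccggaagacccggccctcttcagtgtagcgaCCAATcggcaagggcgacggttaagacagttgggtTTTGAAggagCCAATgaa
Ube2c, chr2:164769729-164769928, plus strand: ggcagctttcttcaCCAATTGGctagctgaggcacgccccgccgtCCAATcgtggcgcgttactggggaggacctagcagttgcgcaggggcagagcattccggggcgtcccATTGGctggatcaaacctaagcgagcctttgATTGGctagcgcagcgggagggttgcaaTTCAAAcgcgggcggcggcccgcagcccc
In each of the 4, the CHR nearest the start begins 15 (Cdk1), 17 (Kif22), 18 (Cdc20) or 29 (Ube2c) bases before the start. The nearest CCAAT box upstream of that CHR begins 48, 54, 53 and 57 bases before the start. In other members with both elements, such as Plk1, Aurka and Cenpa, the CHR lies only after the start.

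The question put to the knockout libraries was which members differed from Scramble, and by how much. All 46 were above the filter of a mean of 1 RPKM and were tested with limma-trend on log2(RPKM + 1) among 10691 genes. A gene is said to have passed, risen or fallen at an adjusted p (Benjamini-Hochberg over all genes tested) under 0.05, and to have met the study's limits where the change was also 2-fold or more and the mean of one of the groups reached 16 RPKM. The 3 comparisons share their 2 Scramble libraries, so they are not independent of one another.

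In JunDKO, 36 of the 46 members rose and 0 fell by limma-trend, where 6.93% of all genes tested rose and 4.82% fell. The limits were met by 28 members, against 2.69% of all genes. The median log2 fold change of the members was 1.45, against 0.23 for all genes, and 44 members had both JunDKO libraries above both Scramble libraries, against 45.3% of all genes. The shift of all genes depended on the scaling: with equal library medians, 31 members rose at a median of 1.17 while the calls over all genes went from 741 higher and 515 lower to 344 higher and 764 lower. Leaving out JunDKO replicate 1 put the median of the members at 1.43, JunDKO replicate 2 at 1.49 and Scramble replicate 2 at 1.38. The medians over all genes were then 0.22, 0.24 and 0.22. Calls were fewer in each of these fits, among the members and over all genes. With the GC trend of each library removed 42 members rose, as did 1596 of 10617 genes in all against 741 of 10691 before, the 6 gained being Spc25 (1.41), Ncapg (1.16), Mad2l1 (0.99), Smc4 (0.78), Smc2 (0.69) and Bub3 (0.43). Of the 36, 13 passed under every alternative: Ccnb2, Cdc20, Cdca8, Cenpa, Cenpf, Kif11, Kif20a, Kif23, Kif2c, Mki67, Plk1, Tpx2 and Ube2c. Despite depths of 1553296 and 18444437 reads, the JunDKO libraries were as close as those of any group, with a median absolute log2 difference of 0.18 over the members against 0.20 to 0.41 in the others. S100a8, the only one of 6 neutrophil markers with reads in the line, was at 0 in both JunDKO libraries and at 21.8 to 41.1 RPKM in the other 6. The summed macrophage markers were lower in JunDKO too (17040 to 17621 RPKM against 22457 to 24039 in Scramble), a sum made up mostly of Lyz2. Adgre1 and Itgam were also lower, while Cd68, Csf1r, Fcgr1 and Mertk were higher. The part of S100a8 and of these markers in the differences of the members was not tested.

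In Atf3KO, 27 of the 46 members rose and 0 fell, but here 20.7% of all genes tested rose and 20.6% fell. The limits were met by 12 members (7.84% of all genes), the median log2 fold change was 1.00 (0.05 over all genes), and 34 members lay wholly above Scramble (37.4% of all genes) and 1 wholly below. Passing under every alternative were 13 members: Ccna2, Cdc20, Cdc25c, Cenpa, Espl1, Foxm1, Incenp, Kif20a, Kif23, Kif2c, Mki67, Plk1 and Ube2c. Without Scramble replicate 2 the median was 0.96 (0.04 over all genes), and calls were fewer among the members and over all genes. Atf3KO replicate 2 carries another date in its title than the other 7 iBMDM libraries. Within the common date, without it, the median was 1.15 (0.04 over all genes). Fold changes in Atf3KO followed the GC content of the transcripts, with Spearman's rho of 0.50 over 10617 genes and 0.42 over the 46 members, which hold 39.1% to 56.1% GC. With the GC trend of each library removed, 38 members rose, and 2310 of 10617 genes in all. The 11 gained were Spc25 (1.59), Ncapg (1.28), Bub1 (1.09), Cenpf (1.08), Nuf2 (1.04), Anln (1.00), Smc4 (0.93), Hmmr (0.85), Kif4 (0.55), Smc2 (0.51) and Bub3 (0.46). The Atf3KO libraries also held reads of fewer gene models, 10425 and 10631 against 11884 to 12533 in the other iBMDM libraries, and the part of this in the result was not tested.

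In JunKO, 0 of the 46 members passed by limma-trend, where 0.159% of all genes tested rose and 0.122% fell, although all 46 fold changes were above 0. The median was 0.48 (0.01 over all genes), 14 members had an unadjusted p under 0.05 (842 of 10691 genes in all), and 37 lay wholly above Scramble, against 19.1% of all genes. By limma-voom on recovered reads 0 members passed and 5 had an unadjusted p under 0.05, and with the GC trend removed 0 passed and 27 did. The largest differences were 1.08 ± 0.28 (SE, n = 2 per group) for Birc5, 1.03 ± 0.30 for Nusap1, 0.94 ± 0.23 for Aurkb and 0.88 ± 0.26 for Ube2c.

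**Figure D2:**
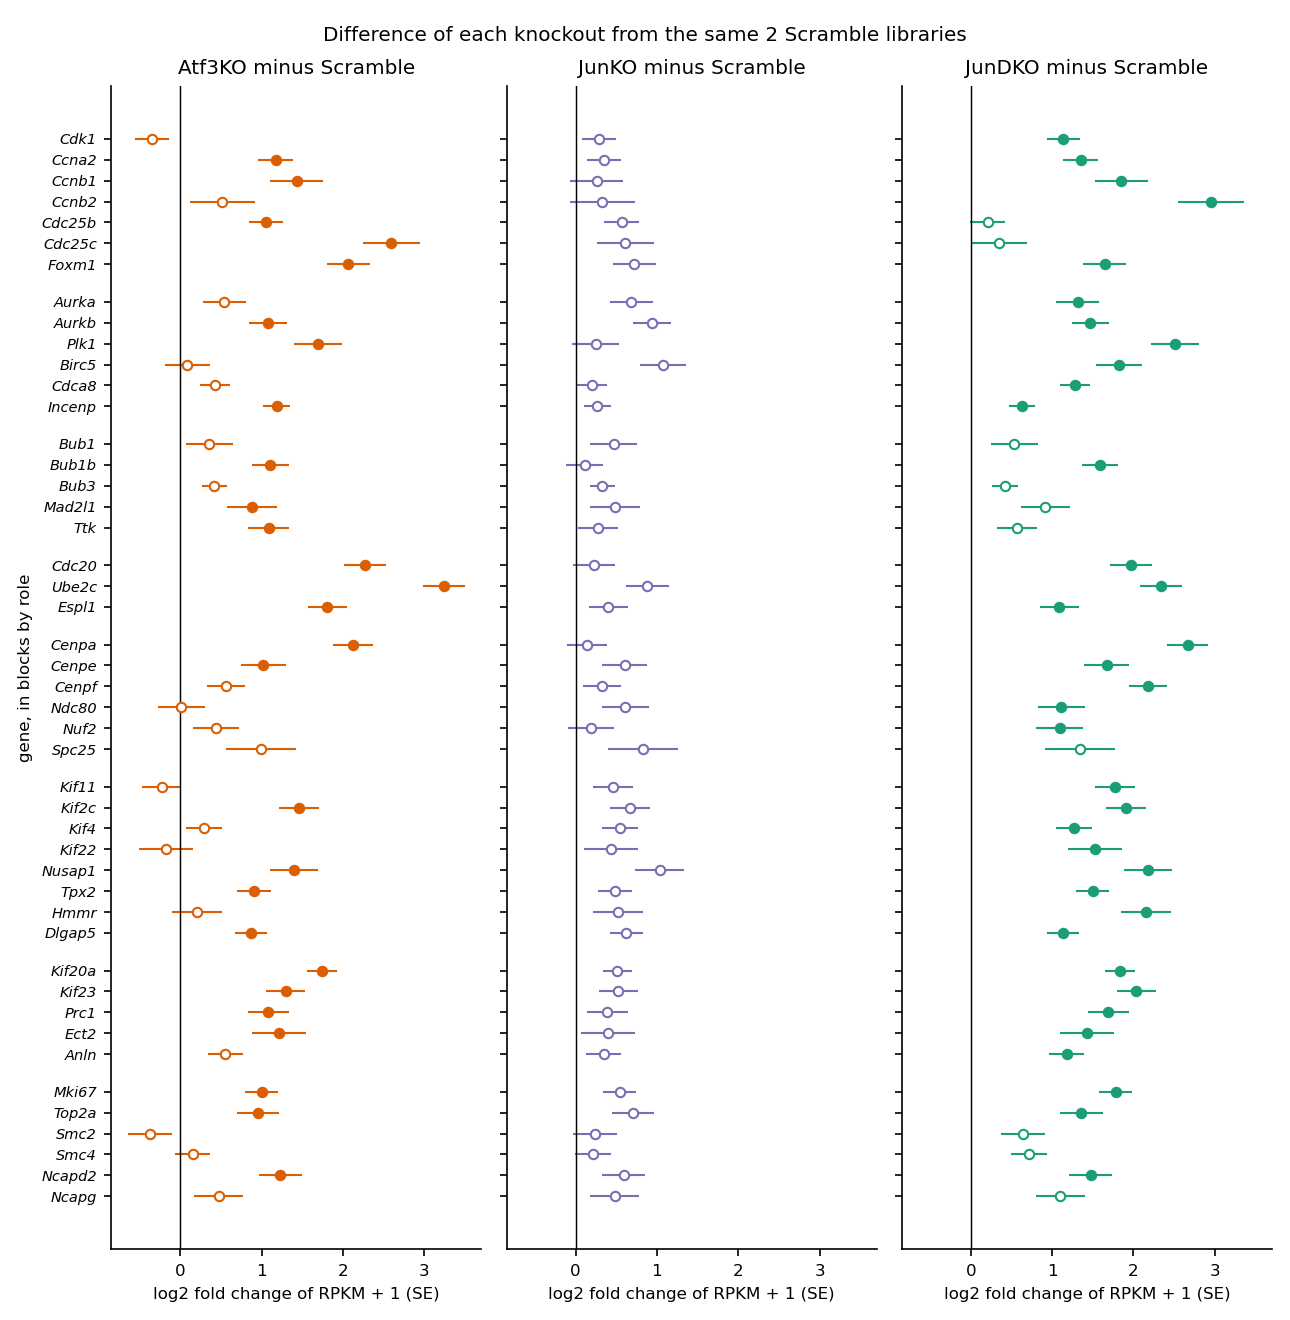
Difference from Scramble of each member in Atf3KO, JunKO and JunDKO as log2 fold change of RPKM + 1, with bars of 1 SE and n = 2 libraries per group; filled points passed at an adjusted p under 0.05. Filled points number 27, 0 and 36, and those of JunDKO lie between 0.63 (Incenp) and 2.95 (Ccnb2).

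Among the 7 genes of entry into mitosis, 5 rose in JunDKO and 5 in Atf3KO, but not the same ones in every case. Ccna2, the S and G2 cyclin and the most abundant of the group, measured 20.0 and 25.2 RPKM in Scramble, 61.7 and 43.7 in Atf3KO, 28.1 and 29.8 in JunKO, against 57.2 and 60.7 in JunDKO. Ccnb2, a mitotic cyclin, measured 7.45 and 2.29 RPKM in Scramble, 6.99 and 6.14 in Atf3KO, 4.60 and 6.86 in JunKO, against 39.6 and 40.1 in JunDKO. Ccna2 was thus higher in both of these knockouts (1.17 ± 0.21 and 1.35 ± 0.21), whereas only the JunDKO libraries stood apart for Ccnb2 (2.95 ± 0.40, adjusted p = 0.00293). Cdk1, the kinase itself, measured 14.7 and 12.5 RPKM in Scramble, 11.4 and 9.50 in Atf3KO, 18.9 and 14.9 in JunKO, against 33.4 and 28.9 in JunDKO. It rose in JunDKO by 1.14 ± 0.21, and its log2 fold change in Atf3KO was −0.35 ± 0.21 (adjusted p = 0.201). The Cdc25 phosphatases had the opposite pattern. Cdc25c measured 1.61 and 0.303 RPKM in Scramble, 10.5 and 9.83 in Atf3KO, 1.83 and 1.82 in JunKO, against 1.34 and 1.35 in JunDKO. Cdc25b measured 10.2 and 9.51 RPKM in Scramble, 19.8 and 23.3 in Atf3KO, 16.8 and 13.6 in JunKO, against 13.3 and 9.97 in JunDKO. Both Atf3KO libraries were above all other iBMDM libraries for both genes, with 2.60 ± 0.35 for Cdc25c and 1.05 ± 0.21 for Cdc25b, and JunDKO gave 0.34 ± 0.35 and 0.21 ± 0.21, which did not pass. The Scramble values of Cdc25c rest on 6 and 1 reads. Foxm1, the transcription factor of this gene program, rose in both, by 2.07 ± 0.27 in Atf3KO and 1.64 ± 0.27 in JunDKO, as did Ccnb1, the other B-type cyclin (1.43 ± 0.32 and 1.85 ± 0.32).

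**Figure D3:**
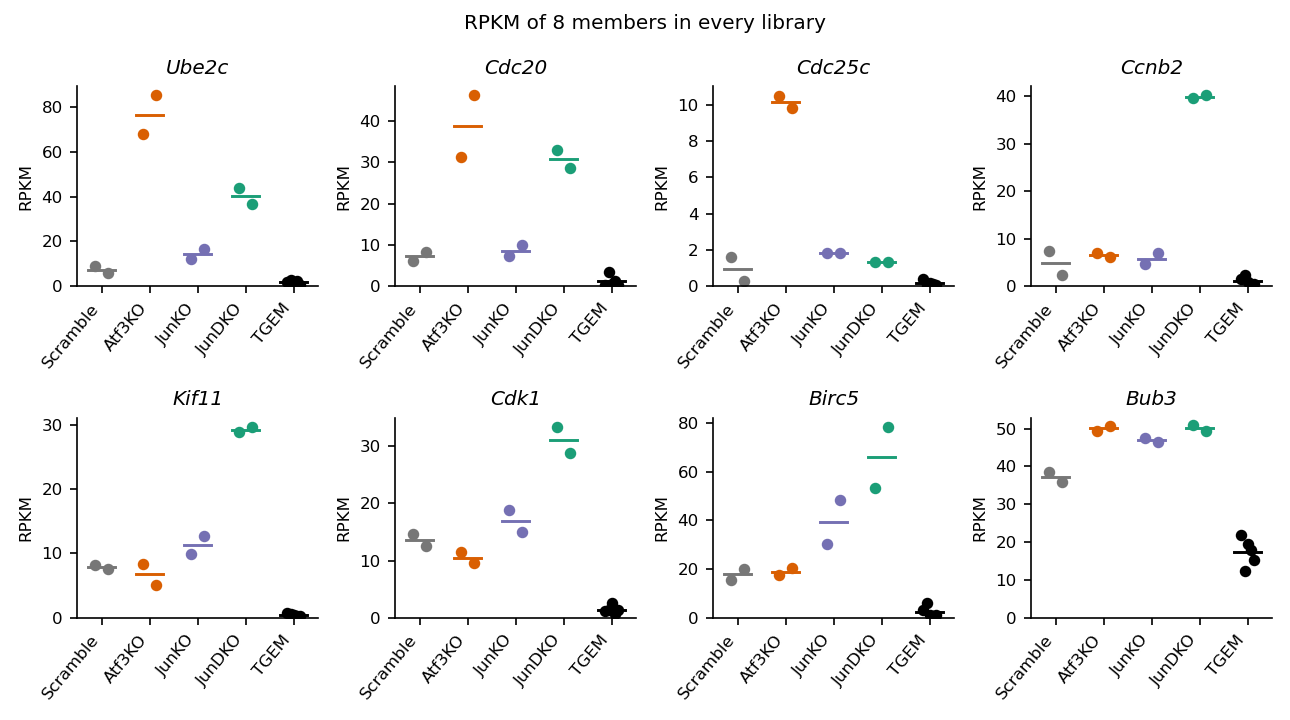
RPKM of 8 members in the 2 libraries of each iBMDM group and the 5 TGEM libraries, with points for libraries and a line for the group mean. Ube2c, Cdc20 and Cdc25c are highest in Atf3KO, Ccnb2, Kif11, Cdk1 and Birc5 are highest in JunDKO, and Bub3 is near 50 RPKM in all 3 knockouts.

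All 6 genes of the mitotic kinases and chromosomal passengers rose in JunDKO and 3 did in Atf3KO. Plk1, the Polo-like kinase, measured 2.59 and 2.92 RPKM in Scramble, 8.16 and 15.1 in Atf3KO, 3.73 and 3.18 in JunKO, against 23.1 and 18.0 in JunDKO. It rose by 2.51 ± 0.29 in JunDKO and 1.70 ± 0.29 in Atf3KO, and its JunKO libraries were within 2 RPKM of Scramble. Incenp, the scaffold of the passenger complex, had the highest mean of the group over all iBMDM libraries, although Birc5 was higher in JunDKO (means of 65.9 and 52.9 RPKM). Incenp measured 34.5 and 33.1 RPKM in Scramble, 74.5 and 82.0 in Atf3KO, 43.3 and 38.7 in JunKO, against 54.8 and 51.0 in JunDKO. The 4 groups did not overlap, and the rise was 1.19 ± 0.16 in Atf3KO and 0.63 ± 0.16 in JunDKO. Birc5 (survivin), the passenger that docks the complex at centromeres, measured 15.6 and 20.0 RPKM in Scramble, 17.4 and 20.3 in Atf3KO, 30.4 and 48.3 in JunKO, against 53.3 and 78.5 in JunDKO. Its order was therefore JunDKO above JunKO above the other 2 groups, which overlapped, and only the rise in JunDKO passed (1.82 ± 0.28). Aurkb, the kinase of the complex, rose in both Atf3KO (1.08 ± 0.23) and JunDKO (1.47 ± 0.23). Aurka, the spindle pole kinase, and Cdca8 (borealin), the third passenger subunit, rose in JunDKO alone among the comparisons with Scramble, by 1.31 ± 0.26 and 1.28 ± 0.18.

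The spindle checkpoint, which holds anaphase until chromosomes are attached, was the group with the fewest calls in JunDKO, 1 of 5. Bub3, the adaptor of the checkpoint kinases and the most abundant of the group, was at 38.5 and 36.0 RPKM in Scramble, 49.5 and 50.8 in Atf3KO, 47.6 and 46.5 in JunKO, against 51.0 and 49.3 in JunDKO. All 6 knockout libraries were above both Scramble libraries by a small margin, and no comparison with Scramble passed (0.42 ± 0.16 in JunDKO, adjusted p = 0.127). Bub1b (BubR1), which inhibits the APC/C directly, measured 11.9 and 9.46 RPKM in Scramble, 27.7 and 20.9 in Atf3KO, 10.3 and 12.97 in JunKO, against 32.0 and 35.9 in JunDKO. It rose in JunDKO by 1.58 ± 0.22 and in Atf3KO by 1.11 ± 0.22, while the JunKO libraries overlapped with Scramble. Mad2l1 (Mad2) and Ttk (Mps1), a Cdc20 inhibitor and the kinase at the top of the pathway, passed in Atf3KO (0.88 ± 0.30 and 1.09 ± 0.25) and not in JunDKO (0.92 ± 0.30 and 0.57 ± 0.25). Bub1, the kinetochore kinase, passed in neither, at 0.36 ± 0.29 and 0.54 ± 0.29, but was 1.09 and passed in Atf3KO with the GC trend removed. In that setting Bub3 also passed in Atf3KO (0.46) and JunDKO (0.43), and Mad2l1 in JunDKO (0.99).

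The 3 genes of anaphase and the APC/C rose in both Atf3KO and JunDKO, and all 3 had their highest mean in Atf3KO. Ube2c, the E2 enzyme of the APC/C, measured 8.98 and 5.70 RPKM in Scramble, 68.0 and 85.2 in Atf3KO, 12.1 and 16.4 in JunKO, against 43.9 and 36.9 in JunDKO. No group overlapped with another, and the 3.24 ± 0.26 of Atf3KO (adjusted p = 0.000213) was the largest log2 fold change of RPKM + 1 of any member in any knockout. As a ratio of mean RPKM in Atf3KO and Scramble, Cdc25c was at 10.6 and Ube2c at 10.4. Cdc20, the APC/C activator, measured 6.14 and 8.24 RPKM in Scramble, 31.3 and 46.2 in Atf3KO, 7.28 and 9.88 in JunKO, against 33.1 and 28.7 in JunDKO. Here the Atf3KO and JunDKO libraries overlapped, and both were above all others. Espl1 (separase), the protease that cuts cohesin, measured 3.53 and 2.30 RPKM in Scramble, 11.0 and 14.3 in Atf3KO, 4.27 and 3.98 in JunKO, against 7.22 and 7.21 in JunDKO, with 1.81 ± 0.24 in Atf3KO and 1.09 ± 0.24 in JunDKO.

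At centromeres and kinetochores, 5 of 6 genes rose in JunDKO and 2 in Atf3KO. Cenpa, the centromeric histone H3 variant, measured 5.90 and 3.91 RPKM in Scramble, 27.9 and 21.3 in Atf3KO, 4.71 and 6.25 in JunKO, against 37.9 and 34.1 in JunDKO. The JunKO libraries overlapped with Scramble, and Cenpa rose by 2.12 ± 0.25 in Atf3KO and 2.67 ± 0.25 in JunDKO. Cenpf, a large kinetochore protein that marks G2 cells, measured 2.38 and 2.74 RPKM in Scramble, 5.10 and 3.52 in Atf3KO, 3.54 and 3.36 in JunKO, against 15.9 and 14.3 in JunDKO. It rose by 2.18 ± 0.23 in JunDKO, and its 0.56 ± 0.23 in Atf3KO did not pass (adjusted p = 0.084) except with the GC trend removed (1.08). Spc25 and Nuf2, subunits of the Ndc80 complex that grips microtubules, differed in spread. Spc25 measured 7.23 and 12.0 RPKM in Scramble, 32.6 and 11.7 in Atf3KO, 16.4 and 18.4 in JunKO, against 22.7 and 28.1 in JunDKO. The Atf3KO replicates of Spc25 were the most discordant pair of that group and overlapped with Scramble, and 1.34 ± 0.43 in JunDKO did not pass (adjusted p = 0.0836). Nuf2 measured 11.1 and 9.29 RPKM in Scramble, 19.4 and 10.2 in Atf3KO, 12.0 and 11.5 in JunKO, against 21.0 and 24.6 in JunDKO, and it rose in JunDKO by 1.09 ± 0.28. Ndc80 itself behaved alike, with 1.11 ± 0.29 in JunDKO and 0.01 ± 0.29 in Atf3KO, while Cenpe, the kinetochore motor, rose in both JunDKO (1.67 ± 0.28) and Atf3KO (1.02 ± 0.28).

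All 8 spindle motor and microtubule genes rose in JunDKO, with 4 in Atf3KO, and 2 of the others lay below 0 there. Tpx2, the activator of Aurora A and the most abundant of the group, measured 9.85 and 9.84 RPKM in Scramble, 23.1 and 16.1 in Atf3KO, 14.3 and 14.0 in JunKO, against 29.4 and 29.9 in JunDKO. The groups were separate, and Tpx2 rose by 0.91 ± 0.21 in Atf3KO and 1.50 ± 0.21 in JunDKO. Nusap1, a microtubule bundling protein, measured 3.27 and 5.33 RPKM in Scramble, 15.5 and 10.4 in Atf3KO, 7.82 and 11.9 in JunKO, against 20.8 and 24.4 in JunDKO. The JunDKO libraries were above all others and Atf3KO and JunKO overlapped, and Nusap1 rose by 2.18 ± 0.30 in JunDKO and also passed in Atf3KO. Dlgap5 (HURP), which stabilises kinetochore fibres, had the smallest difference of the group in JunDKO, with 5.46 and 6.35 RPKM in Scramble, 12.7 and 10.6 in Atf3KO, 10.2 and 9.12 in JunKO, against 14.9 and 13.4 in JunDKO. It nevertheless rose in both, by 0.87 ± 0.20 in Atf3KO and 1.13 ± 0.20 in JunDKO. Kif11 (Eg5), the motor that pushes spindle poles apart, measured 8.21 and 7.55 RPKM in Scramble, 8.35 and 5.13 in Atf3KO, 9.91 and 12.7 in JunKO, against 28.9 and 29.7 in JunDKO. Atf3KO and Scramble overlapped for Kif11 (−0.23 ± 0.25) and both JunDKO libraries were far above them (1.77 ± 0.25). Kif22, a chromokinesin, and Hmmr, a spindle pole protein, differed likewise, with −0.18 ± 0.33 and 0.21 ± 0.31 in Atf3KO but 1.52 ± 0.33 and 2.16 ± 0.31 in JunDKO. With the GC trend removed, Hmmr was 0.85 in Atf3KO and passed. Kif2c (MCAK), a microtubule depolymerase, rose in both (1.46 ± 0.25 and 1.91 ± 0.25), and Kif4, the other chromokinesin, rose in JunDKO (1.27 ± 0.22).

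Of the 5 cytokinesis genes, 5 rose in JunDKO and 4 in Atf3KO. Kif20a is a motor of the central spindle. Its mean over the 8 iBMDM libraries was the highest of the group (20.3 RPKM), but Prc1 (20.0) had the higher mean in Scramble, JunKO and JunDKO. Kif20a measured 8.405 and 7.79 RPKM in Scramble, 30.7 and 28.3 in Atf3KO, 10.9 and 13.2 in JunKO, against 32.1 and 30.9 in JunDKO. Atf3KO and JunDKO were close here, at 1.74 ± 0.18 and 1.84 ± 0.18, and the direct difference between them was 0.09 ± 0.18. Kif23, the motor of centralspindlin, measured 4.27 and 6.53 RPKM in Scramble, 14.8 and 14.1 in Atf3KO, 6.90 and 9.44 in JunKO, against 24.6 and 25.1 in JunDKO. Its groups were separate, with JunDKO highest (2.04 ± 0.24). Anln (anillin), a scaffold of the contractile ring, measured 7.97 and 9.64 RPKM in Scramble, 15.7 and 11.3 in Atf3KO, 11.1 and 11.8 in JunKO, against 22.1 and 20.1 in JunDKO, and its 0.55 ± 0.21 in Atf3KO was the one of the group that did not pass, although it was 1.00 and passed with the GC trend removed. Prc1, which bundles antiparallel microtubules, and Ect2, which activates RhoA at the cleavage furrow, rose in both knockouts, by 1.08 ± 0.25 and 1.21 ± 0.33 in Atf3KO and 1.69 ± 0.25 and 1.43 ± 0.33 in JunDKO.

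Among the 6 genes of chromosome structure, the same number, 3, rose in Atf3KO and in JunDKO, and the condensin subunits were divided. Top2a, the topoisomerase that untangles sister chromatids, had the highest mean of all members over the 8 iBMDM libraries. By group mean, Bub3 and Incenp were above it in Scramble, and Incenp and Ube2c in Atf3KO. Top2a measured 32.6 and 34.1 RPKM in Scramble, 87.7 and 49.0 in Atf3KO, 51.6 and 58.6 in JunKO, against 85.3 and 89.1 in JunDKO. Mki67, the perichromosomal protein Ki-67 used as a proliferation marker, measured 23.4 and 23.1 RPKM in Scramble, 56.7 and 39.9 in Atf3KO, 32.4 and 36.5 in JunKO, against 84.6 and 80.3 in JunDKO. For both genes every knockout library was above both Scramble libraries, and Mki67 rose by 1.00 ± 0.20 in Atf3KO and 1.78 ± 0.20 in JunDKO. Smc2, the core ATPase of both condensins, measured 16.7 and 21.2 RPKM in Scramble, 18.7 and 11.0 in Atf3KO, 20.2 and 24.8 in JunKO, against 27.4 and 32.8 in JunDKO. It passed in no comparison with Scramble, nor did its partner Smc4 (0.71 ± 0.22 in JunDKO, adjusted p = 0.0722) or the condensin I subunit Ncapg (1.10 ± 0.30, adjusted p = 0.0537). With the GC trend removed, Smc2, at 39.1% GC the lowest of the members, turned from −0.37 to 0.51 in Atf3KO and passed, and Smc4 and Ncapg passed too, as all 3 did in JunDKO. Ncapd2, a further condensin I subunit, rose in both Atf3KO (1.23 ± 0.26) and JunDKO (1.47 ± 0.26).

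JunDKO and Atf3KO were then compared directly, without the Scramble libraries entering the contrast. Of the 46 members, 16 were higher in JunDKO, where 25.9% of all genes were, and 5 were lower, where 14.9% of all genes were. The median was 0.55 (0.15 over all genes). With equal library medians it was 0.39 (0 over all genes), and with the GC trend removed it was 0.22 (0.14 over all genes), close to that of all genes, with 29 members above 0 in place of 37. With equal library medians the split over all genes went from 2765 higher and 1590 lower to 2259 and 2084. The shares of members that passed, 16 and 5 of 46, were near those of all genes. Higher in JunDKO were Ccnb2 by 2.43 ± 0.40, Kif11 by 2.00 ± 0.25, Hmmr by 1.95 ± 0.31, Birc5 by 1.73 ± 0.28, Kif22 by 1.70 ± 0.33, Cenpf by 1.62 ± 0.23 and Cdk1 by 1.49 ± 0.21. These 7 and Cdc25c were the 8 that passed under every alternative. Ndc80, Smc2, Kif4, Cdca8, Mki67, Aurka, Kif23, Anln and Tpx2 were higher by 0.59 (Tpx2) to 1.10 (Ndc80). Lower in JunDKO were Cdc25c (−2.25 ± 0.35), Ube2c (−0.90 ± 0.26), Cdc25b (−0.85 ± 0.21), Espl1 (−0.72 ± 0.24) and Incenp (−0.56 ± 0.16). By role, 5 of the 8 motor and microtubule genes were higher, 2 of the 3 anaphase genes were lower, the 7 entry genes were split with 2 higher and 2 lower, and 0 of the 5 checkpoint genes passed in either direction, with an unadjusted p under 0.05 for 0 of them, although Ttk was lower with the GC trend removed.

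GC content moved with this contrast, with Spearman's rho of −0.45 over 10617 genes and −0.26 over the 46 members. Of the genes lower in JunDKO, Espl1 holds 56.1% GC, Incenp 54.8%, Cdc25b 54.0%, Ube2c 50.9% and Cdc25c 47.8%, where the median of the members was 47.1%. Of the leading genes that were higher, Hmmr holds 41.7%, Kif11 42.2% and Cenpf 43.3%, but Birc5 51.7% and Kif22 53.5%. With the GC trend removed, 14 members were higher and 4 lower, where 2925 of 10617 genes in all were higher and 1683 lower. The lower ones were Cdc25c (−2.44), the checkpoint kinase Ttk (−0.98), Ube2c (−0.82) and Cdc25b (−0.54), so Ttk was gained while Espl1 (−0.28) and Incenp (−0.20) no longer passed. Of the higher ones, Smc2 (0.19), Anln (0.24), Tpx2 (0.35) and Kif23 (0.47) were lost and Plk1 (1.24) and Aurkb (0.60) gained, and Kif11 (1.47), Birc5 (1.88), Kif22 (1.98) and Cdk1 (1.30) passed as before. Single libraries bore on the counts. Without Atf3KO replicate 2 there were 10 higher and 1 lower, without JunDKO replicate 1 there were 8 and 2, and without JunDKO replicate 2 there were 8 and 1. Windows with both promoter elements were found for 12 of the 15 matched members that were higher in JunDKO, 3 of the 3 that were lower and 13 of the 18 others, so genes with both elements, such as Kif22 and Ube2c, stood at both ends.

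**Figure D4:**
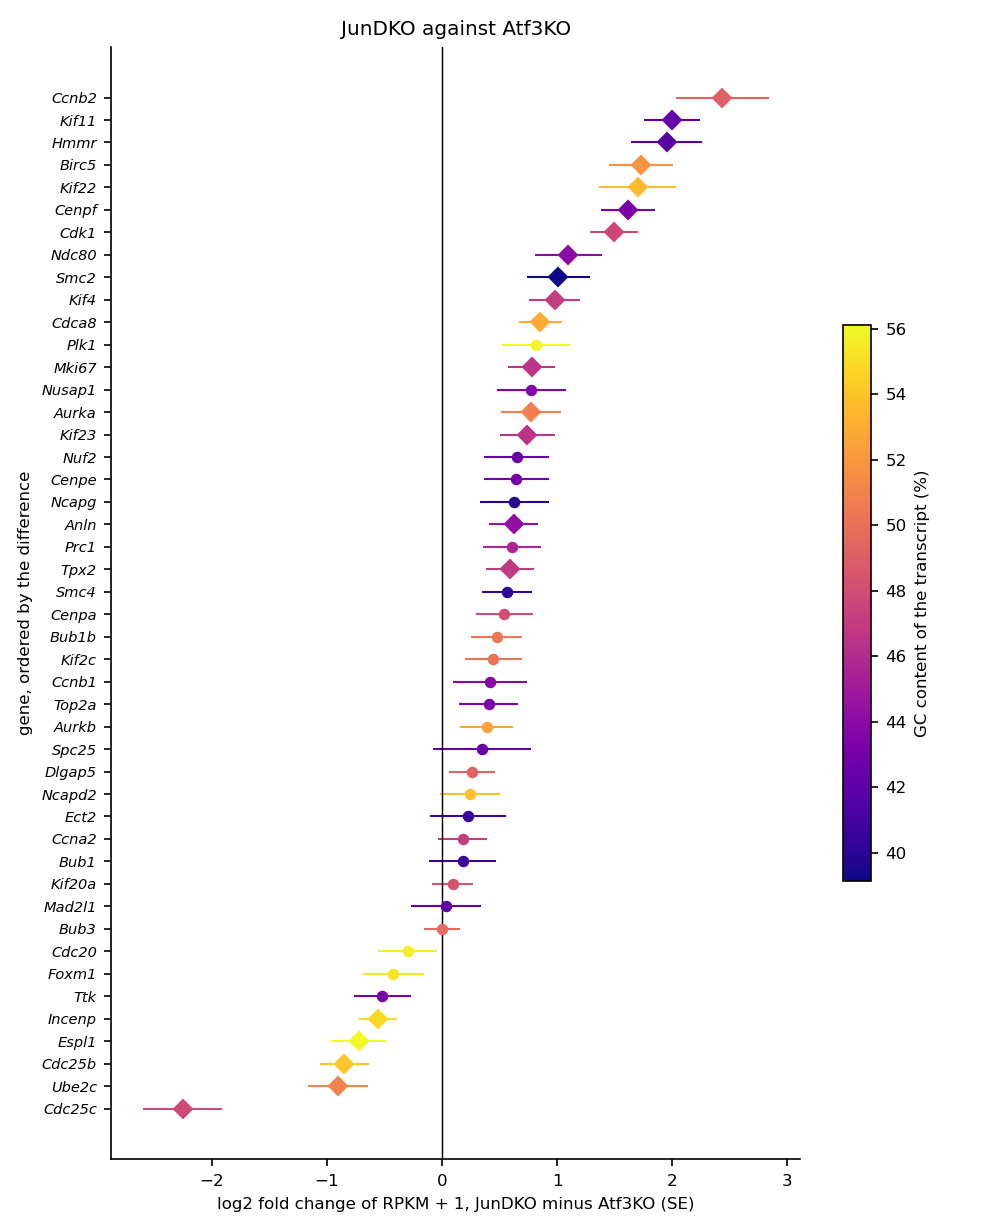
Log2 fold change of RPKM + 1 in JunDKO minus Atf3KO for the 46 members, ordered by size, with bars of 1 SE (n = 2 libraries per group), diamonds for the 21 that passed and colour for the GC content of the transcript. The axis runs from Cdc25c at −2.25 to Ccnb2 at 2.43.

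Against JunKO, 19 members were higher in JunDKO and 0 lower by limma-trend, where 4.33% of all genes were higher and 3.81% lower, and the median was 0.91 (0.23 over all genes). With equal library medians 16 members were higher, while the split over all genes went from 463 higher and 407 lower to 222 and 595. Cenpa (2.52 ± 0.25) and Cenpf (1.85 ± 0.23) passed under every alternative. Ccnb2 had the largest difference, 2.62 ± 0.40. The count was 31 with the GC trend removed, where the count over all genes went from 463 to 1299. With any library of the 2 groups left out the median was 0.88 to 1.01, and calls were fewer among the members and over all genes. Between JunKO and Atf3KO, 2 members were higher in JunKO and 15 lower, where 18.5% and 17.0% of all genes were. The 2 were Birc5 (0.99 ± 0.28) and Cdk1 (0.64 ± 0.21), and the lower ones were led by Ube2c (−2.35 ± 0.26), Cdc20 (−2.04 ± 0.26), Cdc25c (−1.98 ± 0.35) and Cenpa (−1.98 ± 0.25). This contrast followed GC content too (rho of −0.50 over all genes and −0.39 over the members). With the GC trend removed Birc5 and Kif22 (0.90) were higher, Cdk1 (0.44, adjusted p = 0.103) no longer passed, and 28 members were lower at a median of −0.71, where it was −0.38 before. Without Atf3KO replicate 1 or 2 the median of the main fit was −0.15 or −0.67, and without JunKO replicate 1 or 2 it was −0.30 or −0.42. The calls of Birc5 and Cdk1 as higher did not hold without Atf3KO replicate 2 or without JunKO replicate 2.

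The other genes of the cell cycle were read from 3 lists of known function, beside shares over all genes of 20.7% higher and 20.6% lower for Atf3KO, 0.159% and 0.122% for JunKO, and for JunDKO 6.93% and 4.82%. Of 40 other mitotic genes tested (of 42 listed), 22 rose and 1 fell in JunDKO, 20 rose and 2 fell in Atf3KO, and 0 passed in JunKO by limma-trend, with 17 at an unadjusted p under 0.05. The gene that fell in both was Zwint, a kinetochore adaptor, at 93.5 and 95.5 RPKM in Scramble, 42.2 and 36.2 in Atf3KO, 58.6 and 65.6 in JunKO, against 44.5 and 48.3 in JunDKO. It was thus highest in both Scramble libraries, against the direction of the members. Of 26 genes of G1/S and DNA replication, 17 rose and 2 fell in Atf3KO but 3 rose and 0 fell in JunDKO, namely Rrm2 (1.45), Tk1 (1.33) and Rrm1 (0.73), which supply deoxynucleotides. In the direct contrast of JunDKO with Atf3KO 3 of the 26 were higher and 8 lower, where 25.9% and 14.9% of all genes were. Their median was −0.28. Of 15 regulators of the MuvB, Rb and E2F families, 5 rose and 3 fell in Atf3KO and 3 rose in JunDKO. Among these, Mybl2 (B-Myb) rose by 1.74 in Atf3KO, and Lin9, a MuvB subunit, rose by 1.48 in JunDKO. Others had lower values in Atf3KO than in Scramble. Lin37 was at 13.1 and 10.1 RPKM in Scramble and 3.0 and 2.4 in Atf3KO, and Rb1 at 12.1 and 12.1 against 5.34 and 2.98. Lin52 was at 1.70 and 2.74 RPKM in Scramble and at 0 in both Atf3KO libraries. In JunKO 0 genes of the G1/S list and 0 of the regulators passed by limma-trend, with 11 and 3 at an unadjusted p under 0.05. All 26 fold changes of the G1/S list were above 0 there, as for the members, at a median of 0.52. Of these genes, 25 lay wholly above Scramble, against 19.1% of all genes. For the regulators, 11 of 15 were above 0, at a median of 0.15.

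The line and the primary cells were compared over all 13 libraries, with the mean of the 4 iBMDM groups set against the mean of the TGEM conditions. All 46 members were higher in iBMDMs, where 50.7% of all genes tested were higher and 19.9% lower, and 44 had every iBMDM library above every TGEM library, against 24.0% of all genes. The median log2 fold change was 2.84, against 0.44 over all genes. With equal library medians the calls over all genes went from 5540 higher and 2177 lower to 3573 and 3634, and the 46 members kept passing, at a median of 2.52. All 46 passed under every alternative, and 22 met the study's limits (14.5% of all genes). Cell kind goes with culture and with the letter code and date in the sample titles, so these cannot be told apart.

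Top2a had the largest difference on the log2(RPKM + 1) scale, 4.45 ± 0.16 (SE), with 32.6, 55.1 and 89.1 RPKM as the lowest, median and highest of the iBMDM libraries, and 1.42, 3.54, 1.01, 1.33 and 1.50 in the C57Bl/6EiJ vehicle, Balb/cJ vehicle, C57Bl/6EiJ KLA and 2 Balb/cJ KLA libraries. Its highest TGEM value was below its lowest iBMDM value. Cenpa had the smallest difference on that scale, 1.22 ± 0.20, since it measured 7.46, 4.86, 2.88, 3.11 and 6.62 RPKM in TGEMs, overlapping with the 3.91 and 5.90 of Scramble. It was 1 of the 2 members whose cell kinds overlapped, the other being Cdc25c. Bub3 had the highest mean level in TGEMs, at 12.3 to 21.9 RPKM, and differed by 1.34 ± 0.12. Other members with a TGEM mean above 4 RPKM were Incenp (8.62), Mki67 (7.64), Smc4, Cenpa (4.99) and Mad2l1 (4.11). At the other end, Nuf2 was listed at 0 in 3 of the 5 TGEM libraries and Ccnb1 in 2. By the ratio of mean RPKM the order differed, with 79.5 for Nuf2 and 34.6 for Top2a, and with 3.56 for Cenpa and 2.66 for Bub3. Compared with the C57Bl/6EiJ vehicle library alone, Scramble, the iBMDM group with the lowest levels, was higher for 42 of the 46 members, where 30.2% of all genes were, with a median of 2.06. The TGEM arm of this contrast is 1 library, so its calls and errors rest on the spread within the other groups and on the assumption that this library shares it. The 4 others were Ccnb2 (0.87 ± 0.43), Foxm1 (0.63 ± 0.30), Cdc25c (0.50 ± 0.36) and Cenpa (−0.24 ± 0.39). TGEM libraries held summed levels of 10.1 to 23.9 RPKM of B cell markers, 0.375 to 2.27 of T cell, 1.78 to 18.6 of mast cell and 24.2 to 48.4 of fibroblast or mesothelial markers, and the part of such cells in the low mitotic levels was not tested.

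**Figure D5:**
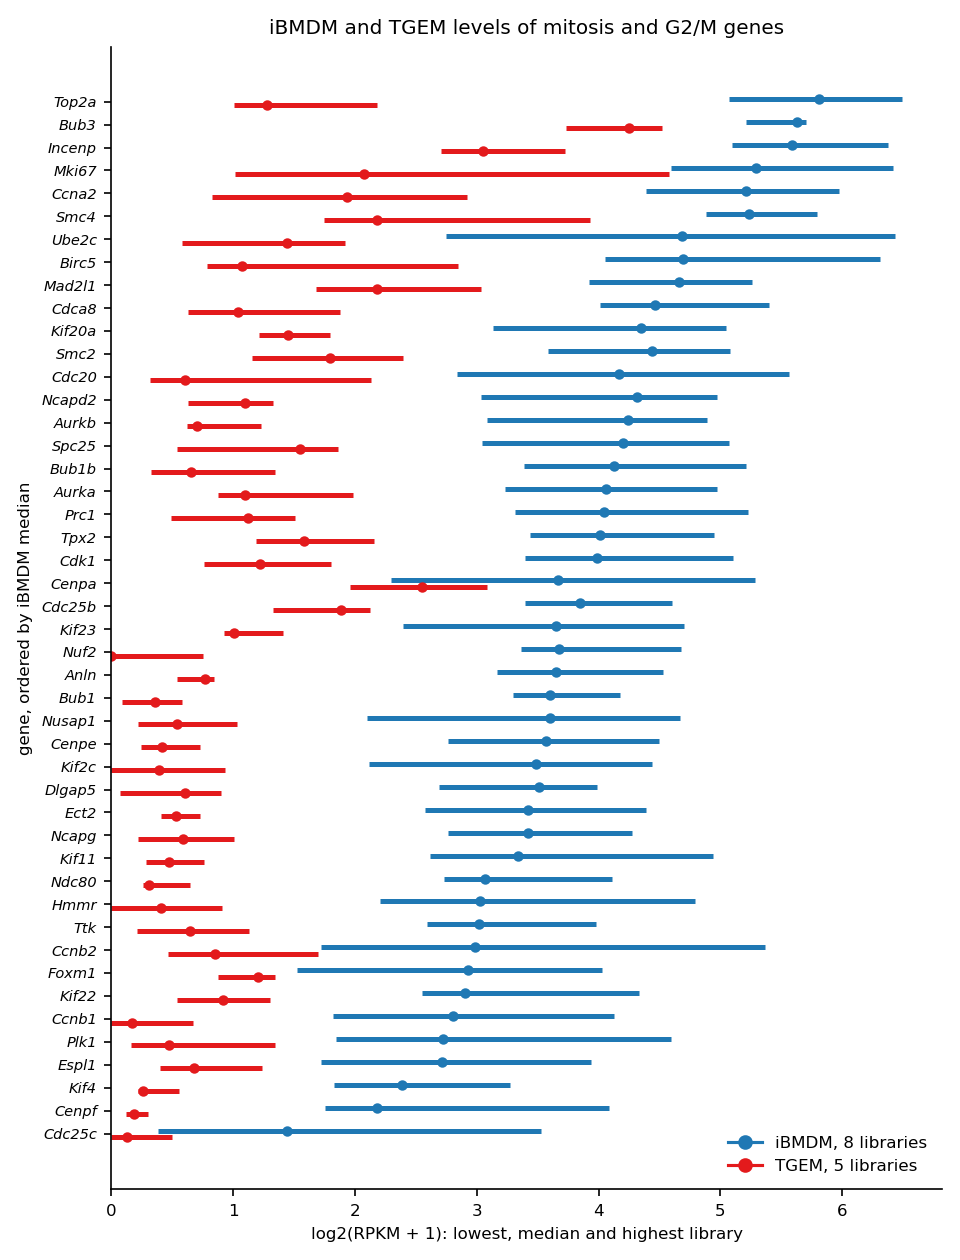
Lowest, median and highest level of each member as log2(RPKM + 1) over the 8 iBMDM libraries (blue) and the 5 TGEM libraries (red), ordered by the iBMDM median. The bars are separate for 44 members and overlap for Cenpa and Cdc25c.

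Within the primary cells 24 of the 46 members reached a mean of 1 RPKM and were tested. The C57Bl/6EiJ libraries carry a date in their titles that no Balb/cJ library has, so strain and date cannot be told apart. Balb/cJ KLA replicate 2 carries a date without a vehicle library. For 1 h of KLA 0 of them passed by limma-trend (1.29% of all genes rose and 0.232% fell), with 6 at an unadjusted p under 0.05 (1553 of 10357 genes in all) and 1, Mki67, passing by limma-voom. Mki67 measured 1.02 RPKM in the C57Bl/6EiJ vehicle, 2.12 in the Balb/cJ vehicle, 3.21 in the C57Bl/6EiJ KLA and 22.9 and 8.94 in the Balb/cJ KLA libraries. Every KLA library was above both vehicle libraries, at a log2 fold change of 1.77 ± 0.45 (adjusted p = 0.145), and the adjusted p ran from 0.00156 to 0.812 over the alternatives. The 22.9 RPKM rest on 3978 reads. Top2a, by contrast, measured 1.33 and 1.50 RPKM in the same Balb/cJ KLA libraries. Outside the members, 1 of 12 regulators tested rose after KLA, namely E2f8, a repressor of the E2F family, from 2.00 and 2.67 RPKM in the C57Bl/6EiJ and Balb/cJ vehicle libraries to 10.5 in the C57Bl/6EiJ KLA and 19.9 and 8.77 in the Balb/cJ KLA libraries (1.95 ± 0.35, adjusted p = 0.0477). For strain, 0 members passed by limma-trend (0.859% of all genes rose in Balb/cJ and 1.45% fell), with 4 at an unadjusted p under 0.05 (2213 of 10357 genes in all) and 2, Mki67 and Smc4, passing by limma-voom, where 255 genes in all were higher and 381 lower. Smc4 measured 3.54 and 2.35 RPKM in the C57Bl/6EiJ vehicle and KLA libraries, 14.2 in the Balb/cJ vehicle and 7.38 and 3.52 in the Balb/cJ KLA libraries, so the strains overlapped. The interaction of strain and KLA gave 0 members by limma-trend, with 3 at an unadjusted p under 0.05 (835 of 10357 genes in all), and 0% of all genes passed. The median member had 7 to 36 reads in these libraries and the fit had 2 residual degrees of freedom, so a missing call does not show equal levels.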

How the data were processed

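PolyA RNA-seq of 13 libraries was analysed, and the 4 GRO-seq samples of the series (17 samples) were not analysed here. Per the labels and the study's methods, the authors aligned reads with STAR to mm10, with a Balb/cJ version of mm10 for that strain, and deposited RPKM values over the exons of 24453 gene models, which the file header credits to HOMER analyzeRepeats. Versions and a strand option were not given in the sources used here, and the authors tested genes with edgeR, which was not used here. Overlapping or antisense genes were not separated.

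Library depth and whole reads were worked out from the steps between low RPKM values, and 100% of those up to 50 reads came out whole (tolerance 0.05 or the rounding of the file). By limma-voom on these reads 26 (Atf3KO), 0 (JunKO) and 37 (JunDKO) members rose against Scramble.

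Genes with a mean of at least 1 RPKM were fitted with limma-trend on log2(RPKM + 1), with 4 residual degrees of freedom over the iBMDM libraries, 6 over all 13 libraries, 2 over TGEMs with strain and KLA as terms, and 1 with their interaction. Tests were two-sided, with Benjamini-Hochberg adjustment over all genes tested. Fold changes on this scale understate those of low genes. Where 1 library was left out, the remaining one of that group was given the spread of the others. Counting error is only part of the replicate error, since the chi-square per degree of freedom between replicates was 3.67 to 81.0. Scripts were tested on simulated data. GC content came from RefSeq transcripts, and a natural spline with 5 degrees of freedom removed its trend. Promoter windows (RefSeq, GRCm38.p6) were taken where the start lay within 500 bases of the model's start.

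The members, gene lists and tests were chosen with earlier results of these data known. Values by library are given, in each role group, for the most abundant member by mean over all iBMDM libraries and those with the largest and smallest change in JunDKO, for members that passed against the direction of most, and for the largest change in Atf3KO and JunKO. Cdc20, Cenpf, Kif11 and, in TGEMs, Smc4 and E2f8 were added after their values were seen. Fits used limma 3.58.1 in R 4.3.3, and tables and figures Python 3.11.15 with pandas 2.3.3, numpy 2.4.6 and matplotlib 3.10.9.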

Additional observations from a re-analysis of the deposited data

How the results depend on the processing

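Values are counts of members that passed or median log2 fold changes of the members. Against Scramble the Atf3KO median was 0.78 with a pseudocount of 5 and 0.83 after quantile normalization, the JunKO median 0.31 with a pseudocount of 5, and the JunDKO median 1.15 with a pseudocount of 5, 1.17 with equal library medians and 1.29 after quantile normalization. For JunDKO against JunKO the median was 0.73, 0.66 and 0.71 in those 3 settings, and 31 members were higher with the GC trend removed. For JunDKO against Atf3KO the median was 0.39 with equal library medians and 0.22 with the GC trend removed, and 25 members were higher by limma-voom. For JunKO against Atf3KO, 0 members were higher without the filter, 28 were lower with the GC trend removed, and that median was −0.71. For iBMDMs against TGEMs the median was 3.81 and 1.63 with pseudocounts of 0.1 and 5, 2.52 with equal library medians, 2.59 after quantile normalization, 2.59 with the GC trend removed, 3.95 by limma-voom and 2.06 for Scramble against the C57Bl/6EiJ vehicle library. For KLA the median was −0.47 and −0.14 with pseudocounts of 0.1 and 5, and by limma-voom 1 member passed for KLA and 2 for strain. In Atf3KO, Smc2 turned from a negative value to 0.51 with the GC trend removed. The causes were not tested.

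With 1 library left out at a time, the count that rose was 15 to 31 in Atf3KO, 0 in JunKO and 16 to 24 in JunDKO, at medians of 0.71 to 1.15, 0.35 to 0.50 and 1.38 to 1.54. For JunDKO against JunKO it was 2 to 10, against Atf3KO 8 to 21 higher and 1 to 5 lower at a median of 0.32 to 0.79, and for JunKO against Atf3KO 0 to 3 higher and 9 to 18 lower at −0.67 to −0.15. For KLA the median ran from −0.62 to −0.15, and for strain it ran from −0.063, without the Balb/cJ vehicle library, to 0.42, with 0 to 1 members higher (1 without Balb/cJ KLA replicate 2).

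The correlation of replicate differences between iBMDM groups was 0.18 to 0.22 among Scramble, JunKO and JunDKO and −0.21 to −0.12 for their pairs with Atf3KO, whose replicate 2 has another date. With 2 libraries a group and no label that ties equal numbers together, the replicate numbers were not taken to pair the libraries. With the replicate number as a block 26 members rose in Atf3KO, 0 in JunKO and 32 in JunDKO. A crossed replicate block, chosen after seeing the data, gave 31, 0 and 41, and 4 members higher in JunKO than in Atf3KO. The strain median, 0.11, was 0.022 to 0.19 under the alternatives that kept all libraries. A further 320 counts and medians stayed within 1.5 times of the count or 1 replicate SD of the median. The TGEM comparisons are limited by 7 to 36 reads for the median member and by single libraries in 3 of 4 conditions.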
